A study of Mus musculus with 24 samples.

Results

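A set of 9 genes that mark dendritic cells were followed across 24 mouse pancreatic tumour libraries. They are Xcr1, Clec9a and Batf3, which mark cross-presenting dendritic cells, Ccr7, Ccl22 and Fscn1, which mark mature migratory ones, and Flt3, Itgae and Cd209a. They were taken by gene name from a count table of 54532 genes, where all 9 are present under 1 identifier each. The libraries fall into 4 groups of 6, all from day 24, namely a PBS (buffered saline) control and groups named GEM, IGEL and LIGEL. The series title speaks of losartan priming followed by a nanocarrier for chemotherapy and immunotherapy, but the labels do not spell out the group names. Tumour model, mouse strain, age, doses and the number of animals are not stated in the labels, so the p-values measure the spread between these libraries, which may be partly technical.

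Dendritic cells take up antigen in tissue and show it to T cells. The cross-presenting kind, called cDC1, depends on the transcription factor Batf3, senses dead cells through Clec9a, answers the chemokine Xcl1 through the receptor Xcr1 and loads taken-up antigen onto MHC class I for CD8 T cells. When a dendritic cell matures it gains Ccr7, the receptor that guides it to lymph nodes, the chemokine Ccl22, which attracts cells with the receptor Ccr4, and the actin-bundling protein fascin, made from Fscn1. In pancreatic tumours cDC1 are known to be scarce.

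Library totals were 27.1 to 40.5 M counts. The titles call the tissue muscle while the labels call it pancreatic tumour. The 6 skeletal muscle markers took at most 0.0254% of any library's counts, and the 4 epithelial markers (keratins and Epcam) summed to 473 to 1420 CPM (counts scaled for library size with edgeR's TMM factors). The 15 acinar markers, which encode digestive enzymes, took 39.7% of the counts of PBS replicate 5, the library that stood farthest apart, and 0.00587 to 16.9% elsewhere. The count columns of 6 libraries carry names that start with A1, A2 or A3 (GEM replicates 1, 2 and 3, IGEL replicate 1 and LIGEL replicates 1 and 2, none of PBS) against A7 to A24 in the rest, and these 6 libraries are given separately where they bear on a member.

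Compared per kilobase of gene length over all 24 libraries, 8 of the 9 genes were scarce. The mean level was 2.48 CPM per kilobase for Batf3, 2.02 for Ccl22, 1.66 for Ccr7, 1.35 for Clec9a, 1.30 for Itgae, 0.473 for Flt3, 0.364 for Xcr1 and 0.140 for Cd209a. Fscn1 stood at 126 CPM per kilobase, far above the others. Its class label rests on its known role, and its level here was far from those of Ccr7 and Ccl22. Fascin is also made by many tumour and stromal cells, and their part in this level was not tested.

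Xcr1 and Clec9a are shown with Ccl22, a gene of the mature class, by the 300 bases around their RefSeq start sites (GRCm38.p6, 250 before and 50 after, in the direction of the gene). Of the 9 genes 7 matched the RefSeq promoter table. Capitals mark GGAAGT on either strand, a core that ETS factors such as PU.1 can bind. The windows are Xcr1 at chr9:123861980-123862279 on the minus strand, Clec9a at chr6:129408612-129408911 and Ccl22 at chr8:94745434-94745733 on the plus strand.
Xcr1: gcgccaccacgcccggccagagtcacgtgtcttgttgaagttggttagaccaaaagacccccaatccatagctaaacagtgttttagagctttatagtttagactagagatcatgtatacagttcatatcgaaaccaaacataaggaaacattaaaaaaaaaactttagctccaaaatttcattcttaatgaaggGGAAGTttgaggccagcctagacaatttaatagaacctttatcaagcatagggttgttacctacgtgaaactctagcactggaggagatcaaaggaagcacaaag
Clec9a: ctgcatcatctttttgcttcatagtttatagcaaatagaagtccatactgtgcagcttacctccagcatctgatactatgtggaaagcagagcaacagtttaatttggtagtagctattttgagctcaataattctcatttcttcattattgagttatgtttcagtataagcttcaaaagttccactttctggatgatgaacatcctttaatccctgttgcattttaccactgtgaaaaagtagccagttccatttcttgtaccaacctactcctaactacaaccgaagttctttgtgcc
Ccl22: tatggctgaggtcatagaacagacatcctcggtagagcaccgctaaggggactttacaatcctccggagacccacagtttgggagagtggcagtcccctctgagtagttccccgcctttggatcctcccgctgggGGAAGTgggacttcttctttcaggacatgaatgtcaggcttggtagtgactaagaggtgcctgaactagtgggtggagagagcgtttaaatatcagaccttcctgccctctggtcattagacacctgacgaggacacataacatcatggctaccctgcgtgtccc
GGAAGT was present in Xcr1, Batf3, Flt3, Cd209a and Ccl22, and in 23.8% of the 32851 promoters of the table. It thus occurred in genes of both classes and was not in the Clec9a window. The AP-1 motif TGANTCA, present in 7.81% of promoters, and an NF-kB motif (GGG, any 2 bases, TTTCC), present in 1.63%, were in 0 of the 7 windows. An interferon motif (GAAA, any 2 bases, GAAA), in 3.44% of promoters, was in 0 of them too, and a PU.1-IRF motif (GGAA, any 2 bases, GAAA), in 2.72%, was in that of Cd209a. Each was searched on both strands, and the interferon and PU.1-IRF motifs share letters. A match of letters is a description and not a binding site.

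Xcr1, the chemokine receptor restricted to cDC1 (ENSMUSG00000060509, mm10 chromosome 9, 123852315 to 123862029, minus strand), had the largest fitted fold change against PBS of the 9 genes in each treated group when all libraries were used. Without PBS replicate 1 that of Cd209a, a gene of very few reads, was larger in GEM and LIGEL. Its level was 0.279 to 2.15 CPM in PBS (median 0.603), 1.52 to 2.57 in GEM (median 1.84), 0.101 to 3.94 in IGEL (median 1.44) and 0.753 to 2.89 in LIGEL (median 1.68). These rest on 4 to 158 reads per library. In GEM and LIGEL 6 of 6 libraries lay above the PBS median and in IGEL 4 of 6. Each treated group still overlapped PBS. GEM did so only through PBS replicate 1, at 2.15 CPM, since the other PBS libraries lay at 1.02 CPM or less. LIGEL replicate 1, at 0.753 CPM, lay below PBS replicate 2 as well. IGEL replicates 3 and 6, at 0.542 and 0.676 CPM, lay among the PBS libraries, and IGEL replicate 1, at 0.101 CPM, below all of them.

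The mean over 6 libraries was 0.826 ± 0.703 CPM (SD) in PBS, and GEM, IGEL and LIGEL had means of 1.94 ± 0.412, 1.83 ± 1.64 and 1.89 ± 0.844. The order was GEM, LIGEL, IGEL, PBS, and the 3 treated means differed by less than their SD. The fitted log2 fold change against PBS was 1.22 ± 0.60 (SE) in GEM, 1.14 ± 0.60 in IGEL and 1.18 ± 0.60 in LIGEL. None passed edgeR's quasi-likelihood test over all 19253 genes kept, with adjusted p = 0.804, 0.358 and 0.264 and unadjusted p = 0.0544, 0.0707 and 0.0612. These comparisons share the PBS libraries. Without PBS replicate 1 the values were 1.78, 1.70 and 1.74, and no adjusted p passed in any of 24 alternatives per comparison, where they ranged from 0.164 to 1 in GEM, 0.208 to 0.549 in IGEL and 0.127 to 0.602 in LIGEL.

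Clec9a, the dead-cell receptor of cDC1 (ENSMUSG00000046080, chromosome 6, 129408862 to 129424763, plus strand), had a mean near that of PBS in each treated group but spread widely in IGEL. Its level was 3.16 to 5.80 CPM in PBS (median 4.36), 3.32 to 5.17 in GEM (3.99), 1.47 to 9.24 in IGEL (4.04) and 3.35 to 5.68 in LIGEL (4.52). The range of each treated group overlapped that of PBS. IGEL replicates 1, 3 and 6, at 1.47, 2.54 and 2.39 CPM, lay below all PBS libraries. IGEL replicates 2 and 5, at 9.24 and 7.82 CPM, lay above all of them. The log2 fold change against PBS was -0.06 ± 0.33 in GEM, 0.16 ± 0.33 in IGEL and 0.04 ± 0.33 in LIGEL (edgeR adjusted p = 0.969, 0.826 and 0.960), and its sign turned when single libraries were left out, for example to -0.13 in IGEL without IGEL replicate 2.

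Batf3, the transcription factor cDC1 need to develop (ENSMUSG00000026630, chromosome 1, 191097847 to 191108945, plus strand), lay between these patterns. Its level was 2.43 to 4.13 CPM in PBS (median 3.33), 2.93 to 4.76 in GEM (4.20), 2.81 to 8.05 in IGEL (3.19) and 2.70 to 6.14 in LIGEL (3.76). In GEM 5 of 6 libraries were above the PBS median, in IGEL 2 of 6 and in LIGEL 3 of 6. The log2 fold change was 0.29 ± 0.27, 0.39 ± 0.27 and 0.36 ± 0.27 in GEM, IGEL and LIGEL (edgeR adjusted p = 0.816, 0.472 and 0.454). The IGEL value was 0.11 without IGEL replicate 2, the library at 8.05 CPM.

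**Figure D1:**
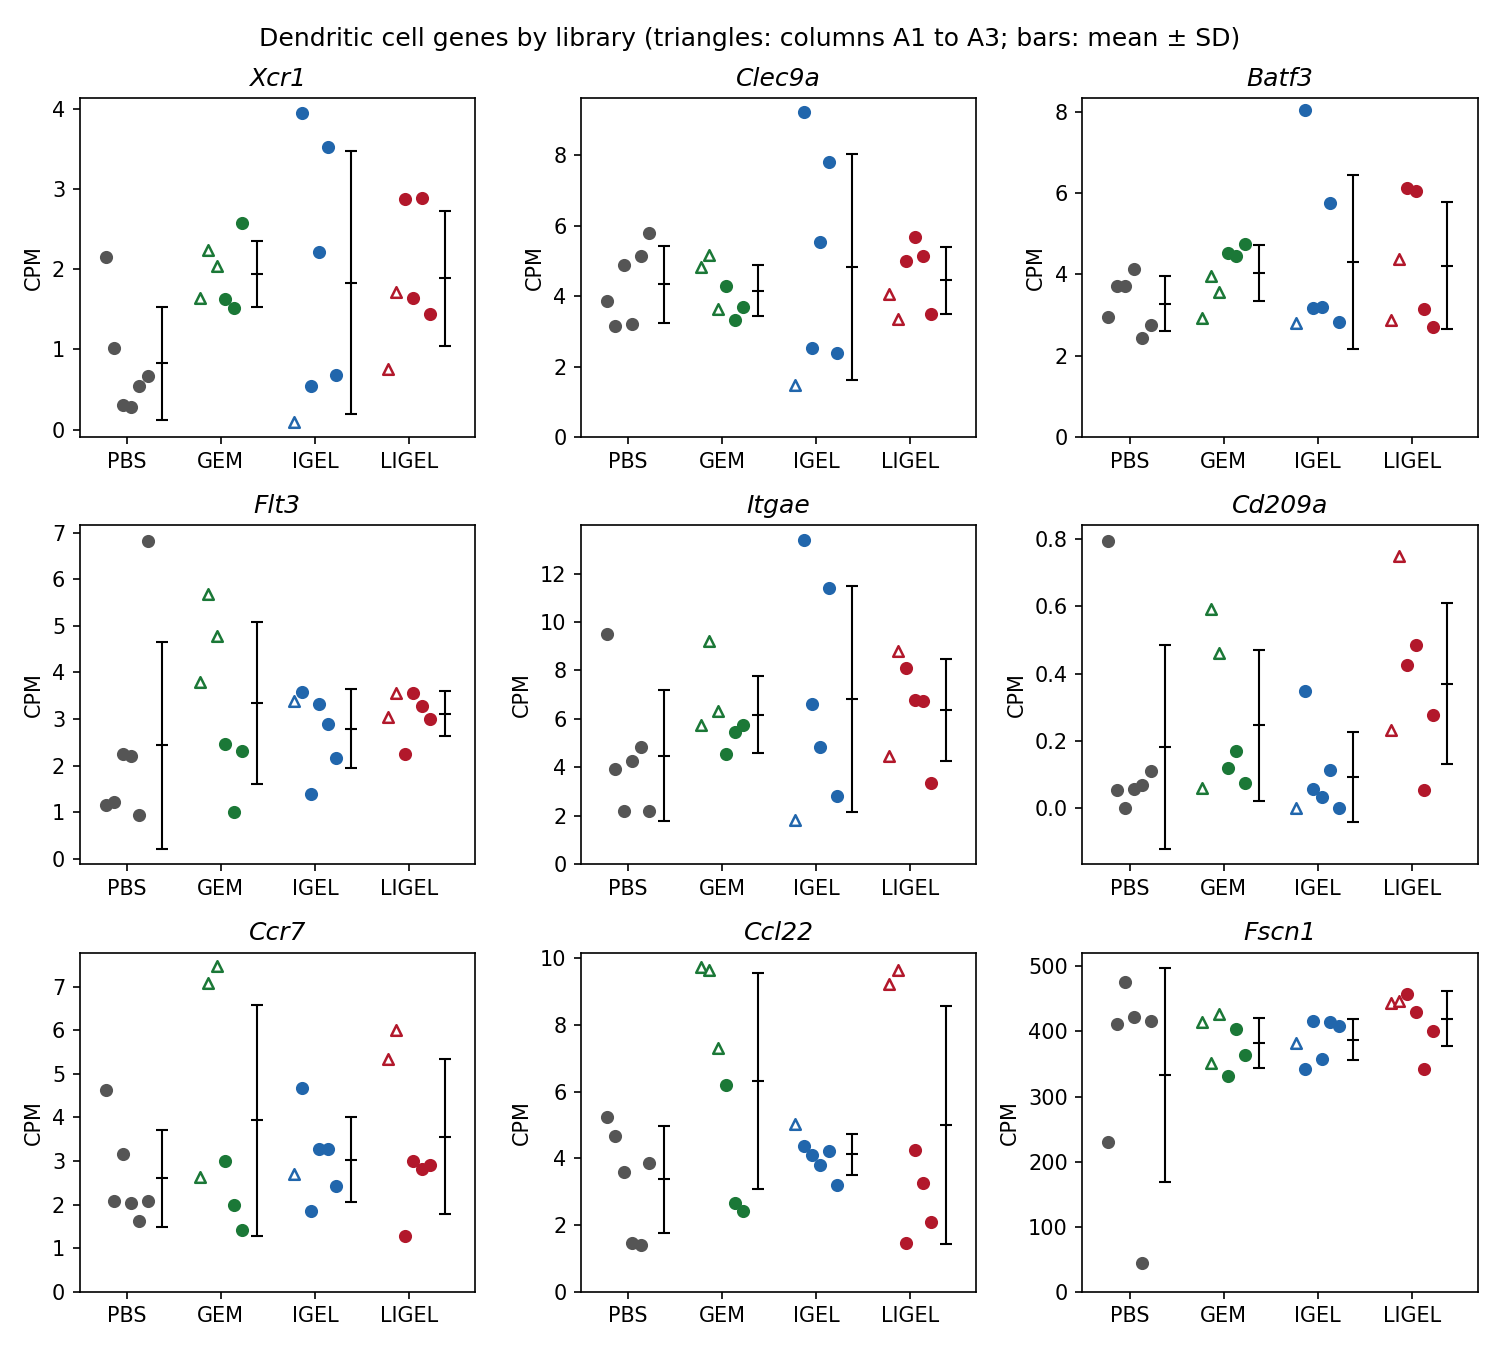
Level of each gene (CPM, linear axis from 0 or just below) in every library of the 4 groups, with libraries of columns A1 to A3 as open triangles and mean ± SD (n = 6) as bars. Xcr1 was at 1.02 CPM or less in 5 of 6 PBS libraries, Clec9a overlapped in all groups, and the highest Ccl22 levels were those of triangles.

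Ccr7, the lymph node homing receptor of mature dendritic cells and of many T cells (ENSMUSG00000037944, chromosome 11, 99144196 to 99155077, minus strand), was at 1.62 to 4.62 CPM in PBS (median 2.08). It was at 1.41 to 7.46 in GEM (2.82), 1.86 to 4.68 in IGEL (2.99) and 1.29 to 6.00 in LIGEL (2.96). The groups overlapped, and the high values came from few libraries. GEM replicates 2 and 3 were at 7.09 and 7.46 CPM and LIGEL replicates 1 and 2 at 5.35 and 6.00, while the other treated libraries were at 4.68 CPM or less.

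Ccl22, the chemokine that mature dendritic cells and some macrophages release (ENSMUSG00000031779, chromosome 8, 94745590 to 94751699, plus strand), was at 1.42 to 5.24 CPM in PBS (median 3.72). It was at 2.42 to 9.74 in GEM (6.75), 3.21 to 5.03 in IGEL (4.16) and 1.48 to 9.65 in LIGEL (3.76). The highest library of each treated group was one of the A1 to A3 columns. These were GEM replicates 1, 2 and 3 at 9.74, 9.66 and 7.30 CPM against at most 6.20 in the rest of GEM, IGEL replicate 1 at 5.03 against at most 4.38, and LIGEL replicates 1 and 2 at 9.23 and 9.65 against at most 4.25.

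Against PBS the log2 fold change of Ccl22 was 0.90 ± 0.44 in GEM, 0.29 ± 0.44 in IGEL and 0.56 ± 0.44 in LIGEL (edgeR adjusted p = 0.804, 0.759 and 0.469), and that of Ccr7 was 0.59 ± 0.40, 0.22 ± 0.40 and 0.45 ± 0.40 (adjusted p = 0.804, 0.804 and 0.531). Once the A1 to A3 libraries were left out, the Ccl22 value was 0.13 in GEM, 0.19 in IGEL and -0.29 in LIGEL, and that of Ccr7 was -0.30, 0.22 and -0.07. Xcr1 kept 1.19, 1.36 and 1.41 in the same fit, in which 3 GEM, 5 IGEL, 4 LIGEL and 6 PBS libraries remained.

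The difference between the A1 to A3 libraries and the rest of their own groups was then fitted for all genes. Ccl22 was higher in the A1 to A3 libraries by a log2 difference of 1.28 ± 0.30 over all 24 libraries (edgeR adjusted p = 0.0721, where 0.0935% of all genes were called, 0.0312% higher and 0.0623% lower) and by 1.28 ± 0.25 over the 18 treated libraries (adjusted p = 0.0141). In that second fit 4% of 18698 genes were called, 1.65% higher and 2.35% lower. Ccr7 differed by 1.03 ± 0.31 over all 24 (adjusted p = 0.172) and by 1.03 ± 0.30 over the 18 (adjusted p = 0.0597), short of the threshold in both. The call on Ccl22 was also made without PBS replicate 5 (adjusted p = 0.0201, where 2.4% of genes were called, 1.04% higher and 1.35% lower) and not with any other library left out of the 24, and its adjusted p ranged from 0.0141 to 0.292 over the alternatives. The other 7 genes passed in none of these 3 fits. Xcr1 lay at -0.82 ± 0.55 and Batf3 at -0.43 ± 0.25 over the treated libraries (adjusted p = 0.358 and 0.273), the opposite sign to Ccl22. Flt3 and Cd209a lay at 0.67 ± 0.26 and 0.66 ± 0.75 (edgeR adjusted p = 0.121 and 0.610), the same sign as Ccl22. Clec9a, Itgae and Fscn1 lay at -0.36, -0.10 and 0.09. What the column names stand for is not stated, nor whether A2_1 and A2_2 (GEM) or A3_1 and A3_2 (LIGEL) are separate tumours. They were singled out with the values known, and as PBS holds no such library, name and treatment cannot be told apart in the comparisons with PBS that include them.

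Fscn1 (ENSMUSG00000029581, chromosome 5, 142960343 to 142973185, plus strand), the remaining gene of the mature class, varied little among the treated libraries. Its level was 331 to 427 CPM in GEM, 342 to 416 in IGEL and 342 to 457 in LIGEL, and 411 to 476 in 4 of the PBS libraries, with PBS replicate 1 at 230 and PBS replicate 5 at 44.0 CPM. These 2 libraries had the highest acinar shares of PBS, 5.45 and 39.7%. In the treated groups the libraries with more acinar counts than PBS replicate 1 were at 358 CPM or more, with GEM replicate 6 (16.9%) at 364 CPM, IGEL replicate 4 (9.24%) at 358 and LIGEL replicate 4 (7.70%) at 430. The part of acinar tissue in these values was not tested. The log2 fold change was 0.20 ± 0.30, 0.22 ± 0.30 and 0.33 ± 0.30 in GEM, IGEL and LIGEL (edgeR adjusted p = 0.872, 0.732 and 0.532). Without PBS replicate 5 it was -0.05 and -0.02 in GEM and IGEL and 0.10 in LIGEL.

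**Figure D2:**
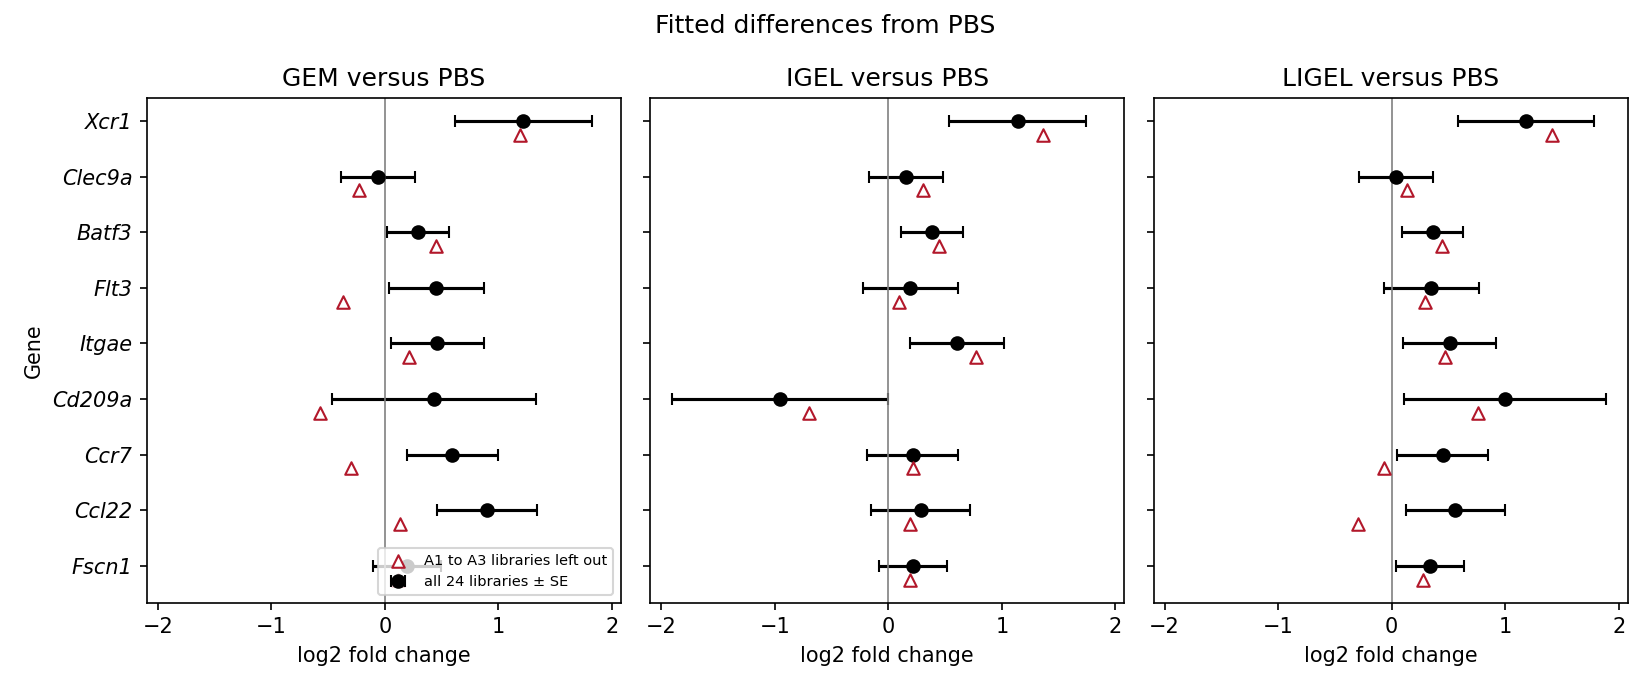
Fitted log2 fold change of each gene against PBS in GEM, IGEL and LIGEL over all 24 libraries (points, ± SE) and with the 6 A1 to A3 libraries left out (triangles). Xcr1 stayed above 1 in all panels, while Ccr7 and Ccl22 moved to 0.13 or less in GEM and LIGEL without those libraries.

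Flt3, the receptor whose ligand drives dendritic cell development (ENSMUSG00000042817, chromosome 5, 147330741 to 147400489, minus strand), was at 0.946 to 2.24 CPM in 5 PBS libraries and at 6.82 in PBS replicate 6, the highest of all 24. It was at 1.01 to 5.68 in GEM, 1.40 to 3.59 in IGEL and 2.26 to 3.56 in LIGEL, so that 6 of 6 LIGEL libraries lay above the PBS median of 1.72. The log2 fold change was 0.45 ± 0.42, 0.19 ± 0.42 and 0.35 ± 0.42 (edgeR adjusted p = 0.816, 0.833 and 0.653). Without PBS replicate 6 it was 1.09, 0.84 and 0.99, with adjusted p = 0.574, 0.240 and 0.103, within ranges over the alternatives of 0.559 to 1, 0.240 to 0.985 and 0.103 to 0.991.

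Itgae encodes the integrin CD103, carried by cDC1 and by tissue-resident and regulatory T cells (ENSMUSG00000005947, chromosome 11, 73090583 to 73147446, plus strand). It was at 2.19 to 9.51 CPM in PBS, 4.54 to 9.23 in GEM, 1.82 to 13.4 in IGEL and 3.34 to 8.82 in LIGEL. In GEM 6 of 6 libraries, in IGEL 4 and in LIGEL 5 were above the PBS median of 4.09. The log2 fold change was 0.46 ± 0.41, 0.60 ± 0.41 and 0.51 ± 0.41 (edgeR adjusted p = 0.811, 0.460 and 0.484), and without PBS replicate 1 it was 0.83, 0.97 and 0.88.

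Cd209a, a lectin of monocyte-derived and cDC2-type dendritic cells (ENSMUSG00000031494, chromosome 8, 3743397 to 3748984, minus strand), was near the detection limit with 0 to 28 reads per library. Some of its reads could come from the neighbouring Cd209 copies, so its values are uncertain. No read was counted in PBS replicate 3, IGEL replicate 1 and IGEL replicate 6, where a count of 0 allows up to 0.0820, 0.0759 and 0.0845 CPM. The median was 0.0617 CPM in PBS, and GEM, IGEL and LIGEL had 0.144, 0.0441 and 0.350. Against PBS the log2 fold change was 0.43 ± 0.90, -0.95 ± 0.95 and 0.997 ± 0.89 (edgeR adjusted p = 0.909, 0.617 and 0.530). Without PBS replicate 1, at 0.795 CPM, it was 2.07, 0.69 and 2.64.

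Over the 9 genes, 8, 8 and 9 were higher in GEM, IGEL and LIGEL than in control, at a median log2 fold change of 0.45, 0.22 and 0.45. Over all genes kept the medians were -0.02, -0.02 and -0.03. For the cross-presenting genes the medians were 0.29, 0.39 and 0.36, and for the mature migratory genes 0.59, 0.22 and 0.45. With PBS replicate 5 and the A1 to A3 libraries left out together, 3, 6 and 7 of the 9 were higher, and the mature migratory median was -0.11 in GEM and -0.14 in LIGEL. In edgeR 0 of 9 passed at an adjusted p under 0.05 in any of the 3 comparisons, and 0% of all genes did. At an unadjusted p under 0.05 it was again 0 of 9, where 4.81%, 15% and 20.5% of all genes passed in GEM, IGEL and LIGEL. By direction, 1.92%, 5.79% and 6.28% of all genes passed higher and 2.89%, 9.25% and 14.2% lower. DESeq2 and voom with sample quality weights also passed 0 of 9 after adjustment. Among all genes DESeq2 called 0 of 19141 in GEM, 85 of 16157 in IGEL and 1229 of 18767 in LIGEL. Of 19253 genes voom called 66, 384 and 728. At an unadjusted p under 0.05 DESeq2 passed Xcr1 and Ccl22 in GEM, none in IGEL and Xcr1 in LIGEL, and voom passed 4, 0 and 3 of the 9. Over all genes these shares were 6.61%, 18% and 22.9% with DESeq2 and 14%, 15.8% and 19.1% with voom. Of 648 values of the 9 genes under the alternatives tried, 0 were called, where 2, those of Cd209a in IGEL and LIGEL by DESeq2, had no adjusted p.

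Between treated groups, the smallest p was that of Cd209a in LIGEL against IGEL, with a log2 fold change of 1.95 ± 0.93 (unadjusted p = 0.0471, edgeR adjusted p = 1, where 1.26% of all genes had an unadjusted p under 0.05, 0.426% higher and 0.831% lower). In that comparison 6 of 6 LIGEL libraries lay above the IGEL median. In IGEL against GEM it was that of Cd209a too, at -1.38 ± 0.94 (edgeR adjusted p = 1), and in LIGEL against GEM that of Ccl22, at -0.34 ± 0.44 (edgeR adjusted p = 0.999). In these comparisons 0 of 9 passed after adjustment, with 0% of all genes. Against GEM, 0 of 9 had an unadjusted p under 0.05 in IGEL or LIGEL, beside 1.58% of all genes (0.878% higher, 0.706% lower) and 3.16% (0.831% higher, 2.33% lower).

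Across libraries, Xcr1 and Clec9a went with the leukocyte gene Ptprc (CD45). IGEL replicate 2 was the highest of the 24 libraries in Xcr1, Clec9a, Batf3 and Itgae and had 187 CPM of Ptprc, the highest of the 24, while IGEL replicate 1 was the lowest in Xcr1, Clec9a and Itgae and had 39.3 CPM, the lowest. Over 24 libraries the log2 levels of Xcr1 and Ptprc had Pearson's r = 0.835 and Spearman's rho = 0.766, and without the 2 libraries farthest from the Ptprc median r = 0.717. For Clec9a they were 0.659 and 0.537 (0.612 without the 2), for Ccr7 0.373 and 0.521 (0.473), and for Ccl22 0.201 and 0.295 (0.294). These are descriptions: the libraries share scaling and group, and in a bulk sample fewer cells of a type and less RNA per cell cannot be told apart.

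**Figure D3:**
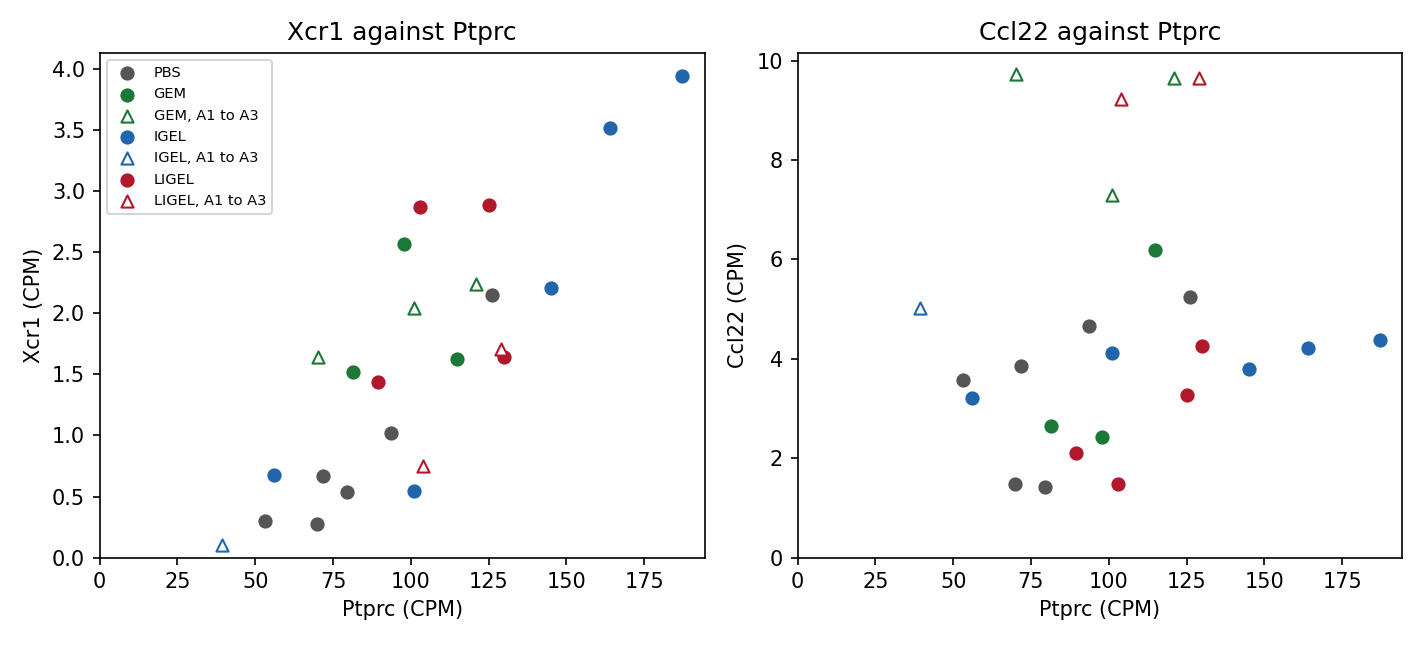
Xcr1 (left) and Ccl22 (right) against Ptprc, all in CPM on linear axes, 1 point per library coloured by group, with open triangles for the A1 to A3 columns. Xcr1 went up with Ptprc from 0.101 CPM at 39.3 to 3.94 at 187, while the 5 highest Ccl22 points, 7.30 CPM and above, were triangles over a Ptprc range of 70.1 to 129 CPM.

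Set against Ptprc within each library, the mean log2 ratio of Xcr1 to Ptprc was -6.79 ± 0.65 in PBS (SD, n = 6), and GEM, IGEL and LIGEL had -5.61 ± 0.30, -6.46 ± 1.03 and -5.99 ± 0.67. Relative to PBS these ratios lay 1.18, 0.33 and 0.81 higher. For Clec9a the ratio lay -0.32, -0.44 and -0.46 from PBS, for Batf3 0.02, -0.05 and -0.21, for Ccr7 0.13, -0.09 and -0.14, and for Ccl22 0.58, 0.10 and -0.11. For Flt3 it lay 0.32, 0.13 and 0.17 from PBS, for Itgae 0.33, 0.12 and 0.11, for Cd209a 0.33, -0.87 and 0.63, and for Fscn1 0.25, 0.21 and 0.16. Xcr1, Flt3, Itgae and Fscn1 thus lay above their PBS mean in all 3 treated groups, where those of Flt3, Itgae and Fscn1, and that of Xcr1 in IGEL, did so by less than the PBS SD of 1.26, 0.47, 1.48 and 0.65. These ratios were not tested.

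Among pairs of the 9 genes, Xcr1 went with Itgae (r = 0.791, rho = 0.792; r = 0.767 without the 2 libraries farthest from the Xcr1 median), with Clec9a (0.641, 0.535; 0.443) and with Batf3 (0.514, 0.550; 0.579). Clec9a and Batf3 were looser (0.482, 0.259; 0.257). Ccr7 went with Ccl22 (0.752, 0.696; 0.705), also among the 18 libraries outside the A1 to A3 columns (0.645, 0.651). Between the classes, Xcr1 was at 0.241 and 0.330 with Ccr7 and at 0.141 and 0.147 with Ccl22. Clec9a and Ccr7 were at 0.168 and 0.253. Clec9a with Ccl22, and Batf3 with Ccr7 and with Ccl22, had a rho of 0.08 or less. Clec9a and Batf3 thus exceeded Xcr1 and Ccr7 in r but not in rho. Outside the A1 to A3 columns rho was 0.348 for Xcr1 and Ccr7, 0.432 for Clec9a and Ccr7 and 0.28 for Clec9a and Batf3. By rank, pairs within a class were therefore not always closer than pairs between classes. Fscn1 was at 0.167 and 0.014 with Ccr7 (r = 0.167 without the 2 farthest) and at 0.313 and 0.023 with Ccl22 (0.462). Itgae was as close to the T cell receptor chain Cd3e (r = 0.847, rho = 0.833; 0.825) as to Xcr1. The 9 T cell markers summed to 24.0 to 97.5 CPM in PBS, 31.9 to 66.9 in GEM, 25.6 to 148 in IGEL and 32.8 to 81.2 in LIGEL, with none at 0 in any library, and the part of T cells in Itgae was not tested.

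**Figure D4:**
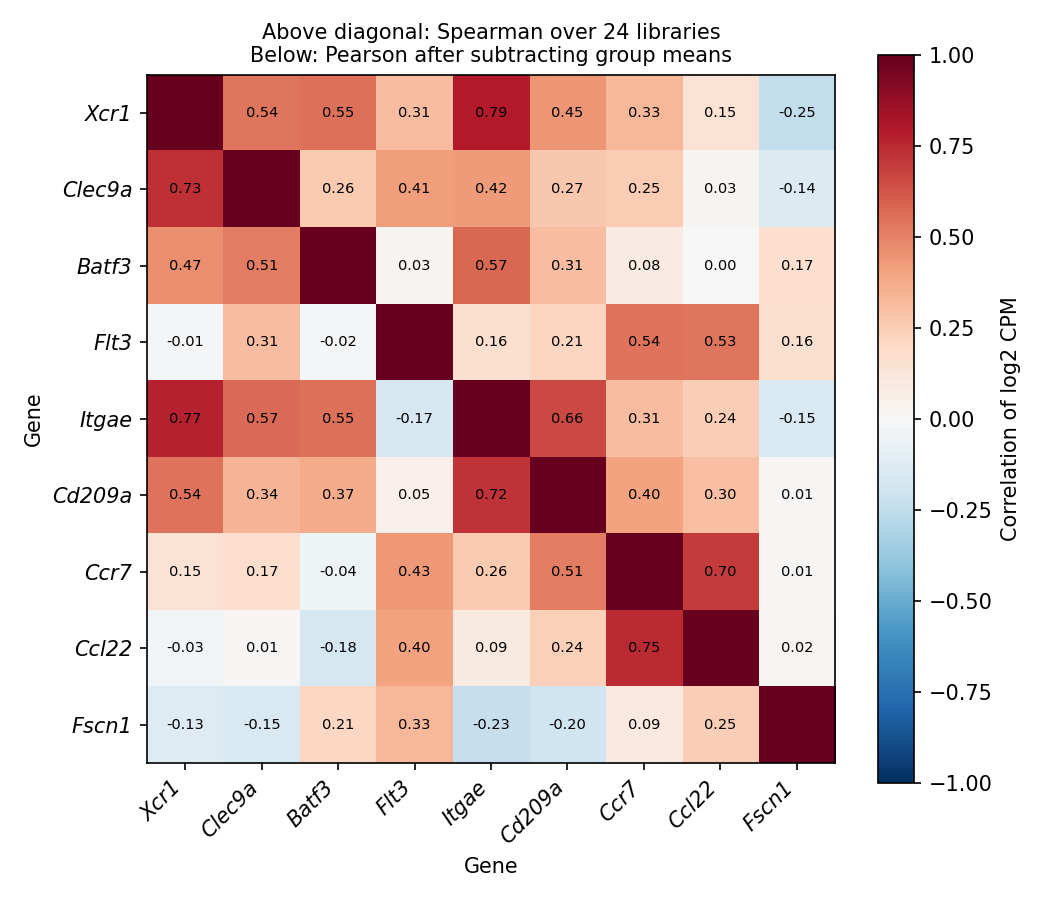
Correlations of log2 CPM between the 9 genes, above the diagonal Spearman's rho over 24 libraries and below it Pearson's r after group means were subtracted. Xcr1 with Itgae (0.79 and 0.77) and Ccr7 with Ccl22 (0.70 and 0.75) were the closest pairs, and the highest value of Fscn1 was 0.331, with Flt3.

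By a fixed rule, the 5 genes whose ranks over the 24 libraries were most like those of Xcr1, among 13134 genes, were Bcl6b (rho = 0.860), Ccdc88b (0.815), Mmp25 (0.797), Itgae (0.792) and Exoc6 (0.787). For Clec9a they were Adgre4 (0.777), Ms4a4c (0.769), Tomm40l (0.760), Fis1 (0.754) and Arhgef37 (0.746). For Ccr7 they were Birc3 (0.763), Sowahc (0.724), Ccl22 (0.696), Cd101 (0.685) and Phf8 (0.683). For Ccl22 they were Clec4d (0.787), Pygl (0.716), Hcar2 (0.712), Zfp469 (0.707) and Nr4a3 (0.701). No gene was shared between any of these lists, whether their members were of the same class or not. The lack of overlap thus does not set the classes apart.

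The 9 ligands, receptors and partners of these genes included 6 that passed the filter on counts. Xcl1, the ligand of Xcr1, was at 0.0673 ± 0.0833 CPM in PBS and 0.0823 ± 0.0625, 0.165 ± 0.0874 and 0.103 ± 0.0296 in GEM, IGEL and LIGEL, too low to pass the filter on counts. Flt3l, the ligand of Flt3, was at 6.48 ± 3.55, 4.81 ± 1.03, 6.60 ± 2.25 and 6.19 ± 0.454 CPM in PBS, GEM, IGEL and LIGEL. Ccr4, the receptor for Ccl22 on regulatory and helper T cells, was at 0.567 ± 0.386 CPM in PBS and 0.510 ± 0.163, 0.98 ± 0.477 and 1.29 ± 0.567 in GEM, IGEL and LIGEL. Its log2 fold change in LIGEL was 1.14 ± 0.47 (edgeR adjusted p = 0.182). The Ccr7 ligands Ccl19 and Ccl21a, each with 2 rows in the table and near-identical copies, did not pass the filter. Ccl19 was at most 0.113 CPM in any library. Ccl21a was at 0.0187 ± 0.0291 CPM in PBS and 0.426 ± 0.988, 2.29 ± 5.58 and 0.52 ± 1.25 in GEM, IGEL and LIGEL. Each group held a library at 0, and the SD exceeded the mean in each. The highest single libraries were at 0.0589 CPM in PBS and 2.44, 13.7 and 3.06 in GEM, IGEL and LIGEL.

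Irf8, the partner factor of Batf3, was at 87.0 ± 32.2 CPM in PBS and 109 ± 10.7, 108 ± 13.5 and 124 ± 7.15 in GEM, IGEL and LIGEL, a log2 fold change of 0.51 ± 0.19 in LIGEL (adjusted p = 0.154 in edgeR). Junb, another partner, was at 188 ± 78.5, 225 ± 55.0, 221 ± 62.5 and 230 ± 38.3 CPM. Itgb7, the chain that pairs with CD103, was at 135 ± 92.4, 188 ± 52.7, 231 ± 116 and 235 ± 44.3 CPM. Cdh1, the epithelial E-cadherin that CD103 binds, was at 111 ± 131 CPM in PBS and 74.5 ± 45.4, 33.6 ± 23.2 and 20.5 ± 16.7 in GEM, IGEL and LIGEL, a log2 fold change of -2.44 ± 0.80 in LIGEL (edgeR adjusted p = 0.131). None of the 6 partners that passed the filter was called by edgeR after adjustment in any comparison with PBS. At an unadjusted p under 0.05 there were 0 in GEM, 1 lower in IGEL, and 2 higher and 1 lower in LIGEL. Over all genes 1.92%, 5.79% and 6.28% passed higher and 2.89%, 9.25% and 14.2% lower, which also applies to the lists below. Irf8 is counted both here and among the other cDC1 genes.

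Of 11 other cDC1 genes, 10 passed the filter and 6, 8 and 8 were higher than PBS in GEM, IGEL and LIGEL, at medians of 0.27, 0.32 and 0.30, with 0 called by edgeR after adjustment. At an unadjusted p under 0.05 there were 0, 1 and 2 higher and 0, 0 and 1 lower. In PBS several of these genes stood far above Xcr1 (0.826 CPM), such as Irf8 at 87.0 and Cadm1 at 53.7 CPM, while Clnk was at 0.0599. Over 24 libraries Irf8 had rho = 0.383 with Xcr1, 0.267 with Clec9a and 0.540 with Fscn1. The part of other cell types in this and the following dendritic cell lists was not tested. PBS replicate 5, with 39.7% acinar counts, had the lowest summed CPM of this list, 183 against a PBS median of 347. It was also the lowest library for the partners above (265 against 545) and the other mature genes (210 against 259). The part of this library in the differences of these lists from PBS was not tested. The interferon-inducible Ifi205 was at 13.8 ± 2.82 CPM in PBS against 21 ± 5.35 in LIGEL (log2 fold change 0.61 ± 0.16, edgeR adjusted p = 0.124), and Id2, a factor needed for cDC1, at 29.5 ± 19.9 against 18.8 ± 4.70 (-0.65 ± 0.30, adjusted p = 0.227). Of 16 other mature dendritic cell genes, 15 passed the filter and 11, 12 and 10 were higher, at medians of 0.23, 0.18 and 0.08, with 0 called and 1, 2 and 2 higher at an unadjusted p under 0.05. Pdcd1lg2, which encodes the checkpoint ligand PD-L2, was at 1.11 ± 0.735 CPM in PBS against 2.94 ± 1.54 in LIGEL (1.38 ± 0.46, adjusted p = 0.134 in edgeR), the signalling adaptor Traf1 at 22.4 ± 6.46 against 29.3 ± 7.34 (0.39 ± 0.18, adjusted p = 0.226), and Zmynd15 at 16.4 ± 2.19 against 21.5 ± 4.72 (0.39 ± 0.19, adjusted p = 0.249). These were named by smallest p, and 5 of the 15 were lower in LIGEL. Lamp3 was at 0.4 ± 0.116 CPM in PBS against 0.278 ± 0.0565 in LIGEL, and Ccl17 at 0.673 ± 0.475 against 0.569 ± 0.422. Il4i1, which did not pass the filter, was at 0.242 ± 0.0511 against 0.0847 ± 0.0391.

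Of 8 other cDC2 and monocyte-derived genes, all passed the filter and 6, 5 and 6 were higher, at medians of 0.23, 0.26 and 0.19, with 0 called and 0, 1 and 1 higher at an unadjusted p under 0.05. PBS replicate 5 again had the lowest sum, 279 CPM against a PBS median of 623. In PBS the means of Notch2 and Sirpa were 326 and 157 CPM, and that of Cd7 was 0.168. The lectin Mgl2 was at 19.8 ± 12.7 CPM in PBS against 40.0 ± 10.7 in LIGEL (log2 fold change 1.01 ± 0.40, edgeR adjusted p = 0.169), Esam had -0.40 ± 0.28 and the transcription factor Irf4 0.58 ± 0.42. Of 6 genes of the conventional lineage 4, 3 and 4 were higher with 0 called by edgeR and 0, 0 and 1 higher at an unadjusted p under 0.05. Within PBS the lowest sum of these was also that of PBS replicate 5, 116 CPM against a median of 158. The cytokine receptor chain Csf2rb was at 37.6 ± 11 against 60.9 ± 11.4 CPM (0.70 ± 0.24, adjusted p = 0.140 in edgeR), Dpp4 had -0.88 ± 0.52 and the integrin Itgax 0.57 ± 0.35, and Zbtb46, the factor that marks conventional dendritic cells, had -0.15 ± 0.23. Markers of macrophages, the other main source of Ccl22, summed to 781 to 1860 CPM in PBS, 859 to 1860 in GEM, 593 to 1670 in IGEL and 1010 to 1420 in LIGEL over 9 genes, with none at 0 in any library, and their part in Ccl22 was not tested.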

How the data were processed

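Bulk RNA sequencing of 24 mouse pancreatic tumour samples was used, in 4 groups of 6. Per the submitters' processing notes, the authors used HISAT2, featureCounts of Subread and the build mm10; their versions, the strand setting and the annotation are not stated in the labels. The deposited table holds unnormalized read counts for each gene, and the gene length, another deposited column, was used only to set levels per kilobase. All 9 genes have the same coordinates in GENCODE mouse release 21.

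The tests used edgeR 4.0.16 in R 4.3.3 (filterByExpr with min.count 10 and min.total.count 15, which kept 19253 of 54532 genes and removed 0.0666% of counts, TMM factors, robust quasi-likelihood F test, 1 mean per group over all 24 libraries), after a test on simulated data. The simulated counts had the same spread in all genes and no library set apart like PBS replicate 5. That test therefore does not show how the fit handles such a library. Calls were made at an adjusted p under 0.05 (Benjamini-Hochberg over all genes). The SE is the absolute log2 fold change divided by the square root of F. Log2 CPM adds a prior count of 2. Correlations use log2 CPM and carry no p. Depth was 27.1 to 40.5 M counts; limits for a count of 0 are 3 counts and cover counting error only. Library pairs of a group differed by more than sampling noise, with a chi-square per gene of at least 15.6. That lowest value was between LIGEL replicates 1 and 2, whose columns are A3_1 and A3_2. GEM replicates 2 and 3, columns A2_1 and A2_2, were at 52.3, and GEM replicates 1 and 5 at 35.9. Whether same-numbered columns come from 1 tumour is not stated, and the tests count them as separate libraries.

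Named genes are the 9 members, their ligands and partners, the 3 genes with the smallest p in LIGEL against PBS of 4 further dendritic cell lists and of a plasmacytoid list, and the 5 most alike in rank to each of Xcr1, Clec9a, Ccr7 and Ccl22. Zbtb46, Siglech, Lamp3, Ccl17 and Il4i1 are named in addition, chosen once their values had been seen. The members and lists were chosen with earlier results of these data known. Alternatives were DESeq2 1.42.0, voom with quality weights (limma 3.58.1), RLE factors, acinar genes removed before scaling, no filter, a replicate block, the A1 to A3 libraries left out or given a term, libraries of columns ending in _2 left out, and each library left out in turn. Added after seeing the data were PBS replicate 5 left out with that term, PBS replicates 1 and 5 left out together, and the fits of the A1 to A3 difference. The promoter motifs were also chosen then.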

Additional observations from a re-analysis of the deposited data

Results flagged for a closer look

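Of 36 combinations of gene and group, 4 held a library whose gap to its neighbour was large for the range of its group (Dixon's 95% value, which chance passes in about 1 of 20 groups). Flt3 in PBS replicate 6 was at 6.82 CPM against 2.24 in the next PBS library. Itgae in PBS replicate 1 was at 9.51 CPM against 4.86 in the next. Cd209a in PBS replicate 1 was at 0.795 CPM against 0.111 in the next. Cd209a in IGEL replicate 2 was at 0.349 CPM against 0.112 in the next. PBS replicate 1 also had the most Ptprc of its group, 126 CPM, and IGEL replicate 2 the most of all 24, 187 CPM; the part of leukocyte content in these values was not tested.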

How the results depend on the processing

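Of 648 values of the 9 genes against PBS under other settings 0 were called, 2 having no adjusted p. The fitted values of Xcr1, Batf3 and Itgae stayed above 0 in all of them, while other genes changed sign. Xcr1 was at 0.76 to 2.03, but Itgae fell to 0.21 in GEM, and Batf3 to 0.058 in GEM and 0.08 in IGEL. With all libraries the IGEL median of Batf3, 3.19 CPM, lay below the PBS median of 3.33. The numbers of genes called, 0 in each comparison, were 85 in IGEL and 1229 in LIGEL against PBS with DESeq2, and 66, 384 and 728 in GEM, IGEL and LIGEL with voom and quality weights. Voom gave 0.089 for Clec9a and -0.047 for Fscn1 in GEM, and 0.11 for Cd209a and -0.041 for Fscn1 in IGEL. Without the A1 to A3 libraries Flt3, Cd209a and Ccr7 were at -0.371, -0.567 and -0.302 in GEM, and Ccr7 and Ccl22 at -0.065 and -0.29 in LIGEL. With a term for them Clec9a, Cd209a and Ccr7 were at 0.15, -0.013 and -0.078 in GEM, and Ccr7 and Ccl22 at -0.008 and -0.10 in LIGEL. Without PBS replicate 5 and the A1 to A3 libraries together the median of the 9 and that of the mature genes were -0.11 in GEM (here Fscn1), with Flt3, Cd209a, Ccr7, Ccl22 and Fscn1 at -0.53, -0.68, -0.39, -0.01 and -0.11. Flt3 and Fscn1 were then at -0.043 and -0.017 in IGEL, and in LIGEL the mature median and Ccr7 were at -0.14 and Ccl22 at -0.43. Without PBS replicate 5 and with the term, an added setting, the GEM medians were -0.035 and -0.095, and Clec9a, Flt3, Cd209a, Ccr7, Ccl22 and Fscn1 were at 0.18, -0.17, -0.15, -0.19, -0.035 and -0.095. That setting called 105 genes in IGEL, with Flt3, Ccr7, Ccl22 and Fscn1 at -0.086, -0.005, -0.058 and -0.034, and 125 in LIGEL, with Flt3, Ccr7 and Ccl22 at -0.02, -0.11 and -0.26. Without PBS replicates 1 and 5, also added, 119, 692 and 521 genes were called in GEM, IGEL and LIGEL, with Fscn1 at -0.19 in GEM, Flt3, Cd209a and Fscn1 at -0.19, 0.71 and -0.17 in IGEL, and Flt3 and Fscn1 at -0.02 and -0.05 in LIGEL. The causes were not tested.

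With 1 library left out at a time, 0 genes were called in GEM against PBS, 0 to 18 in IGEL and 0 to 173 in LIGEL, 18 and 173 without PBS replicate 5. The lowest and highest values were -0.14 and 0.043 for Clec9a, -0.038 and 2.07 for Cd209a and -0.046 and 0.33 for Fscn1 in GEM, -0.13 and 0.30 for Clec9a, -2.12 and 0.69 for Cd209a and -0.018 and 0.35 for Fscn1 in IGEL, and -0.077 and 0.14 for Clec9a in LIGEL. No pairing by replicate number is given in the labels. Same-numbered libraries had correlations of -0.60 to 0.71 over the 6 comparisons, which do not settle whether there is one. At most 4 of 12 libraries correlated best with their own number, in LIGEL against IGEL. The replicate block called 0 genes and moved Xcr1 to 1.27, 0.97 and 1.21 in GEM, IGEL and LIGEL. Xcr1 and Cd209a rest on 4 to 158 and 0 to 28 reads per library, which limits their precision.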

Other observations

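The list of plasmacytoid dendritic cell genes, whose cells are known for type I interferon, was measured in the same way. Of 8 genes 7 passed the filter, and 3, 3 and 2 were higher than PBS in GEM, IGEL and LIGEL at medians of -0.05, -0.19 and -0.38, with 0 called by edgeR and 0 at an unadjusted p under 0.05. Siglech, a receptor that defines these cells, was at 0.597 ± 0.435 CPM in PBS and 0.856 ± 0.572, 0.344 ± 0.367 and 0.405 ± 0.254 in GEM, IGEL and LIGEL (n = 6 each). The largest member by level was Klk1, a kallikrein that the pancreas makes too, at 1370 ± 2490 CPM in PBS and 203 ± 330 in LIGEL. The list's sum peaked at 6480 CPM in PBS replicate 5, the library with 39.7% acinar counts, so that sum was not read as a level of these cells. In LIGEL against PBS the log2 fold change was -2.75 ± 1.72 for Klk1 (edgeR adjusted p = 0.360), 0.10 ± 0.12 for Tcf4 and -0.38 ± 0.55 for Ccr9.

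Lymph node stroma markers were low in most libraries. Their 5 genes summed to 0.832 to 8.11 CPM in PBS, 0 to 4.79 in GEM, 0.202 to 17.4 in IGEL and 1.13 to 4.32 in LIGEL. The 17.4 CPM was IGEL replicate 2, the library highest in Xcr1, Clec9a, Batf3 and Itgae. Its 6 B cell markers summed to 18.3 CPM and its 9 T cell markers to 148 CPM, the highest of IGEL.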
